A study of Homo sapiens with 10 samples.

Results

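The genes described here are 8 membrane carriers of sugars and sodium-coupled solutes, namely SLC2A1, SLC2A2, SLC2A3, SLC2A5, SLC2A13, SLC5A1, SLC5A3 and SLC5A6. They were chosen by symbol, as members of the families SLC2A and SLC5A, and make up 8 of the 60554 genes in the tables. The estimated counts of all transcripts with one of these symbols were summed to give 1 value per gene and library. All 8 genes were measured in every library.

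The study asked what follows in intestinal epithelial cells when the long noncoding RNA LHFPL3-AS2 is repressed. Its cells were Caco-2, a human colon carcinoma line that takes on features of absorptive enterocytes in culture, grown as monolayers. All groups, the control included, came from a stable Caco-2 clone selected with puromycin that carries dCas9-KRAB, in which a repressor domain is joined to a Cas9 that no longer cuts. Lentivirus then brought in a pKLV-hygro plasmid with the guide g1 (3 libraries), the guide g2 (2 libraries) or no guide (gCtl, 5 libraries), and hygromycin selected the infected cells, so that differences of that parent clone from other Caco-2 cells are shared by the groups. The 5 libraries labelled g1 or g2 are called the knockdown libraries below, after their labels. Nothing in the labels says that the libraries of a group came from separate cultures, so p-values measure only the spread between these libraries, which may be technical.

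The RNA that both guides target showed no lower level in those libraries. LHFPL3-AS2 was at 2.23 ± 1.17 RPM, that is estimated counts per 1000000 of a library (SD, n = 5), in gCtl and at 3.45 ± 1.63 RPM (SD, n = 5) in the knockdown libraries, a log2 fold change of 0.61 (SE 0.42, edgeR adjusted p = 0.381, in a fit that took in noncoding genes). These levels are imprecise, as they rest on 4.4 to 20.7 estimated counts per library in gCtl and 13.2 to 44.0 in the knockdown libraries. The highest level was that of g2 replicate 2, at 6.01 RPM. The directions given below are therefore those of the labels. The libraries held between 3838803 and 8730468 estimated counts. Of the 7 epithelial and enterocyte markers looked up (EPCAM, KRT8, KRT18, KRT19, CDH17, VIL1 and CDX2), all 7 were expressed, their summed level was 1731 to 2238 CPM in gCtl and 1615 to 2223 CPM in the knockdown libraries, and none was called in that comparison, while g2 against gCtl called 1 lower (KRT18) and 1 higher (CDH17). The 5 markers of other cell types summed to 5.57 to 10.9 CPM in gCtl and 5.28 to 19.2 CPM in the knockdown libraries. Among them the leukocyte markers PTPRC and CD3E were at 0 in some libraries and reached at most 1.07 CPM, and the endothelial marker PECAM1 was called higher in g1. Their part in the results was not tested.

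Sugars cross the plasma membrane by 2 kinds of carrier. The facilitative carriers of the SLC2A family, called GLUT, let a sugar or polyol run down its own gradient, except that the SLC2A13 product couples inositol to protons. The SLC5A carriers couple a solute to sodium, whose gradient the sodium pump maintains, and so can take up glucose, inositol or vitamins against a gradient. In the enterocyte, the SLC5A1 product (SGLT1) takes up glucose and galactose at the brush border, the SLC2A5 product (GLUT5) takes up fructose there, and the SLC2A2 product (GLUT2) lets sugars out at the basal side. SLC2A1 (GLUT1) and SLC2A3 (GLUT3) serve the cell's own glucose supply and are high in many tumour lines.

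The starts of 3 of these genes are shown to let their base composition be read beside the expression values. They are SLC5A6 and SLC2A5, both called lower in the knockdown libraries, and SLC2A1, which was not called in any comparison. The sequences are the 250 bases before the annotated start, from RefSeq on GRCh38.p14, written 5′ to 3′ on the strand of the gene, which is the minus strand for all 3. The RefSeq starts lie inside the GENCODE spans given below, so that these stretches do too, that of SLC2A5 far inside. Capitals mark matches on either strand. The motifs were the core of the GC box (GGGCGG) and the TATA box (TATAAA). A promoter was found for 7 of the 8 genes, and SLC2A3 is named only.
SLC5A6 promoter, chr2:27212269-27212518: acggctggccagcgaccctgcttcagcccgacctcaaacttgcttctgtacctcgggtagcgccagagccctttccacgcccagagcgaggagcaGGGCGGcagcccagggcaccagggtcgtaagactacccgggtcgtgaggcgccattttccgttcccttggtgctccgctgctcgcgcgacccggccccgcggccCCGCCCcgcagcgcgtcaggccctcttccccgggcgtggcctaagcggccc
SLC2A5 promoter, chr1:9069636-9069885: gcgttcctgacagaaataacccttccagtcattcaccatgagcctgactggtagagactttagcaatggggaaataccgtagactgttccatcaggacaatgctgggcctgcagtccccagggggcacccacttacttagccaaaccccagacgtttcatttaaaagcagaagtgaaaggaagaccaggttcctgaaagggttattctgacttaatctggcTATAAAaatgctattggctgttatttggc
SLC2A1 promoter, chr1:42958869-42959118: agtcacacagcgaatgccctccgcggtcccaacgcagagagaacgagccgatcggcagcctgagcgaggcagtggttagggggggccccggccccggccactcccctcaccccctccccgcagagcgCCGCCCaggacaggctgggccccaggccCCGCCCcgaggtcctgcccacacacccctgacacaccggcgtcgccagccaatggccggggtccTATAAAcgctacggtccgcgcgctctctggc
The SLC5A6 stretch held 2 GC box cores and no TATAAA, with 71.2% G and C. In contrast, the SLC2A5 stretch held 1 TATAAA and no GC box core, with 46.8% G and C. The SLC2A1 stretch held both motifs, 2 GC box cores and 1 TATAAA, with 72.4% G and C. On either strand, GGGCGG was present in 42.6% and TATAAA in 10.7% of all 35116 promoter stretches of this length, whose median G and C content was 58%. Of 2 further motifs searched on both strands in the 7 promoters, ACGTG, part of the hypoxia response element, was found 2 times in SLC2A13 and in no other of them (18.5% of all promoters hold it), and CTTTGAT, a core of TCF binding sites, was in none of the 7 (2.26% of all promoters). ACGTG and its reverse complement overlap in the palindrome of SLC2A13, so that its 2 matches share bases.

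In gCtl, SLC2A3 and SLC2A1 were the most abundant of the 8 genes. Per length, as TPM (the length-scaled share of a transcript in 1000000, computed here), the mean level in gCtl was 205 ± 47.6 for SLC2A3 (SD, n = 5 here and for the other genes), 79.1 ± 20.4 for SLC2A1, 16.1 ± 2.01 for SLC5A6, 15.0 ± 2.13 for SLC5A3, 3.26 ± 0.807 for SLC2A2 and 2.68 ± 1.03 for SLC2A5. The levels of SLC2A13 and SLC5A1 in gCtl were below these, at 0.686 ± 0.444 and 0.383 ± 0.127 TPM. SLC5A6 and SLC5A3, SLC2A2 and SLC2A5, and SLC2A13 and SLC5A1 are neighbours in this order whose TPM levels differ by less than their spread. The sodium-coupled glucose carrier of the brush border thus had the lowest TPM level of the set in gCtl, with 4 to 10 estimated counts per library. Because reads of these libraries start near the polyA tail, a count does not grow with transcript length. TPM therefore weighs long transcripts such as that of SLC5A3 down and short ones up. A transcript of 383 bases held 11.3% of the SLC2A3 counts in gCtl and adds to its TPM beyond that share. In CPM, SLC2A3 and SLC2A1 were closer in gCtl, at 280 ± 29.9 and 192 ± 49.5 (SD, n = 5 each). The CPM of SLC5A3 and SLC5A6 lay far apart, at 132 ± 20.8 and 27.5 ± 3.27 (SD, n = 5 each). SLC2A5 and SLC2A2 were at 7.91 ± 3.27 and 4.49 ± 0.826 CPM (SD, n = 5 each), the reverse of their TPM order. All 8 genes passed the filter on low values, set at 3 RPM, to be exceeded by 20% of libraries or more, but SLC2A13 passed it through only 2 of 10 libraries (1 of gCtl and 1 of the knockdown libraries), and SLC5A1 through only 2, both labelled knockdown.

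The comparison of the 5 knockdown libraries with the 5 gCtl libraries showed lower levels of 3 of the 8 carriers and a higher level of none. SLC2A3, SLC5A6 and SLC2A5 were called lower, that is with an adjusted p of at most 0.05 over the 11640 genes tested and a fold change of at least 1.5. Of all genes tested, 11.0% were called lower and 8.14% higher. The median log2 fold change of the 8 genes was -0.21, and that of all genes tested was 0.02. With library totals in place of TMM scaling, 69.4% of the called genes were lower, against 57.5% with TMM, and the median over all genes was -0.07.

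SLC2A3, which encodes GLUT3, a glucose carrier of high affinity best known from neurons, had the largest log2 fold change of the set in either direction. The gene spans 7919230 to 7936275 on chromosome 12, minus strand (GRCh38, GENCODE 29). Its level was 263, 279.5, 268, 332 and 259 CPM in the 5 gCtl libraries, 153, 104 and 150.0 CPM in the 3 g1 libraries and 61.8 and 48.8 CPM in the 2 g2 libraries. The groups stood apart in order, with every g2 library below every g1 library and every g1 library below every gCtl library. SLC2A3 fell by 1.43 on the log2 scale (SE 0.26, 95% interval -1.99 to -0.88, edgeR adjusted p = 0.00169), to 37.0% of its gCtl level, and was lower in 5 of 5 knockdown libraries. An exact two-sided permutation test of log2(RPM + 1) gave p = 0.00794, and no smaller p is possible with 5 libraries in each group. The call held under each of the 11 planned settings and with each library left out. On a log2(TPM + 1) scale, which weighs up the short transcript described next, the size of the change was -2.43.

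The transcripts of SLC2A3 did not share this change evenly. Of the estimated counts of the gene, 79.2% fell on ENST00000075120, the coding transcript of 3915 bases, 7.79% on ENST00000543435, a processed transcript of 383 bases, and 7.55% on ENST00000486749, a retained intron transcript of 4414 bases. All 3 end within 1 base of each other in the annotation, so that a 3′ read can fit several of them and the division among them is Kallisto's estimate. The coding transcript was at 227 ± 17.5 RPM in gCtl (SD, n = 5) and at 81.5 ± 49.6 RPM in the knockdown libraries (SD, n = 5). The short transcript was at 38.2, 38.8, 32.3, 47.4 and 12.3 RPM in the gCtl libraries, and in the knockdown libraries at 0, 2.17 and 0 RPM in g1 and at 0.472 and 0 RPM in g2. Its groups did not overlap, and gCtl replicate 5 was nearest to the knockdown libraries. The retained intron transcript was at 0.786 to 29.0 RPM in gCtl and 0 to 36.0 RPM in the knockdown libraries, ranges that overlap. A 0 here is an estimate of Kallisto's, not a number of reads. Without the counts of the short transcript, a setting added after the data were seen, SLC2A3 still fell by 1.26 on the log2 scale (edgeR adjusted p = 0.0035). These transcript levels are given as a description, with no test.

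**Figure D1:**
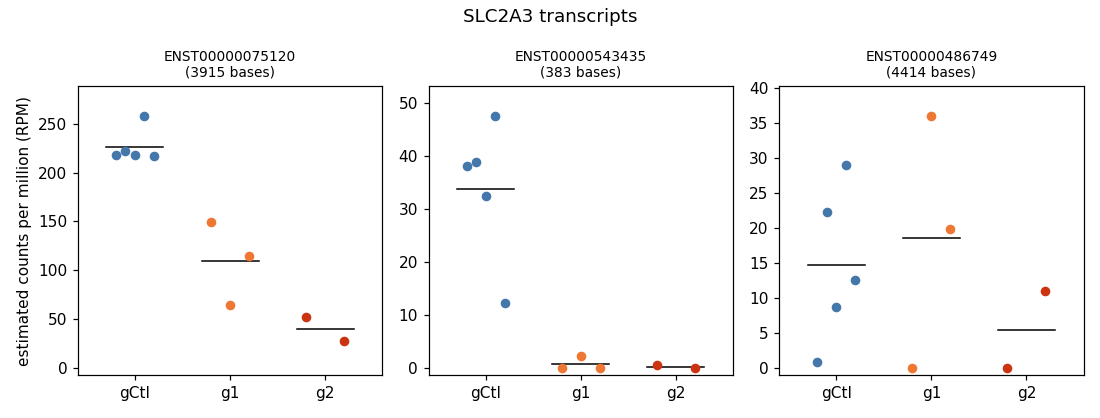
RPM of the 3 most counted SLC2A3 transcripts in the libraries labelled gCtl, g1 and g2 (linear axes, 1 scale per panel, points are libraries and lines are group means). The coding transcript and the short transcript are lower in every g1 and g2 library than in every gCtl library, while the points of the retained intron transcript overlap.

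SLC2A3 has a near copy, SLC2A14, at 7812512 to 7891148 on the same chromosome and strand, and 37.3% of the 31-base words of its coding transcript also occur in SLC2A14. Reads from such stretches could be divided between the pair. These words were counted over the whole transcript, however, while reads of these libraries start near the polyA tail. SLC2A14 was at 7.32 ± 1.60 CPM in gCtl (SD, n = 5) and 4.53 ± 1.17 CPM in the knockdown libraries (SD, n = 5), a log2 fold change of -0.69 (SE 0.26, edgeR adjusted p = 0.0696) that was not called. In g2 it was called lower (-1.10, SE 0.34, edgeR adjusted p = 0.0283). With both genes summed, in a fit that also summed SLC5A3 with the overlapping gene MRPS6, the calls of the set stayed the same in number in each comparison. In the last 500 bases of the most counted transcript of each gene, which for SLC5A6 is a retained intron transcript, no word of 7 of the 8 carriers recurred in another gene, but 108 of 470 words of SLC2A3 (23.0%) did, in genes such as IDS, AP5B1 and PAWR.

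SLC5A6, on chromosome 2 from 27199587 to 27212958 (minus strand), encodes the sodium-dependent carrier of the vitamins biotin and pantothenate and of lipoate. Its level was 26.5, 25.7, 31.2, 30.6 and 23.6 CPM in gCtl, 20.0, 17.1 and 13.8 CPM in g1 and 14.3 and 10.9 CPM in g2. No knockdown library reached the lowest gCtl library. SLC5A6 fell by 0.86 on the log2 scale (SE 0.18, 95% interval -1.23 to -0.48, edgeR adjusted p = 0.00354), to 55.2% of its gCtl level, and was lower in 5 of 5 knockdown libraries. The exact permutation test gave p = 0.00794. Its counts fell almost wholly (96.0%) on ENST00000461757, annotated as a retained intron transcript that shares the gene's 3′ end. The call was lost when the test asked for more than a 1.5-fold change (glmTreat, adjusted p = 0.219). Its neighbour ATRAID, which starts inside SLC5A6 on the opposite strand (chromosome 2, 27212027 to 27217178), was also called lower, at -1.17 (SE 0.27, edgeR adjusted p = 0.00693).

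SLC2A3 and SLC5A6 were 2 genes of the set of 8 in which all knockdown libraries lay below all gCtl libraries, an arrangement that 8.35% of all genes tested showed.

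SLC2A5, the fructose carrier GLUT5, lies on chromosome 1 from 9035107 to 9088478 (minus strand). It was at 5.16, 6.20, 13.4, 6.46 and 8.31 CPM in gCtl, at 4.42, 5.39 and 2.03 CPM in g1 and at 0.928 and 4.74 CPM in g2. One gCtl library, replicate 3, stood above the others, and replicate 1 of gCtl overlapped with g1. SLC2A5 fell by 1.18 on the log2 scale (SE 0.40, 95% interval -2.03 to -0.34, edgeR adjusted p = 0.0419), and an exact permutation test gave p = 0.0159. This call was weak. It was lost without gCtl replicate 2 (edgeR adjusted p = 0.0579), 3 (0.139), 4 (0.0612) or 5 (0.0593), without g1 replicate 3 (0.0918), without g2 replicate 1 (0.0523) and under glmTreat (0.258), and rests on 5.2 to 76.8 estimated counts per library.

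The other 5 carriers were not called in this comparison. SLC2A1, the widespread glucose carrier GLUT1 (chromosome 1, 42925375 to 42959176, minus strand), was at 236, 168, 199.9, 237 and 119.9 CPM in gCtl, 134, 165 and 294 CPM in g1 and 183 and 98.2 CPM in g2. Both the highest and the lowest library were labelled knockdown. Its log2 fold change was -0.13 (95% interval -0.67 to 0.40, edgeR adjusted p = 0.731), an interval that reaches from 0.629 to 1.32 times the gCtl level. SLC2A1-AS1, an antisense gene at its start (42959049 to 42983358, plus strand), was at 4.76 ± 1.81 CPM in gCtl (SD, n = 5), and at 5.94 and 19.2 CPM in g2, where the test over all biotypes called it higher (log2 fold change 1.31, SE 0.39, edgeR adjusted p = 0.0301).

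SLC2A2, the enterocyte's basal exit carrier (chromosome 3, 170996348 to 171026750, minus strand), was at 3.31 to 5.58 CPM in gCtl and 3.05 to 5.33 CPM in the knockdown libraries. The ranges nearly coincide. Its log2 fold change was 0.01 (95% interval -0.55 to 0.57), or -0.08 with library totals in place of TMM scaling. SLC5A1, the sodium and glucose carrier (chromosome 22, 32043032 to 32113029, plus strand), was at 1.75, 1.84, 0.698, 1.20 and 1.41 CPM in gCtl, 2.33, 2.53 and 3.41 CPM in g1 and 3.94 and 0.581 CPM in g2. All 3 g1 libraries were above all gCtl libraries, and the g2 libraries held the highest and the lowest level. The log2 fold change was 0.89 (SE 0.47, 95% interval -0.12 to 1.89, edgeR adjusted p = 0.182). Without g2 replicate 2 it was 1.14 and was called higher (edgeR adjusted p = 0.0471), but SLC5A1 passed the filter through 2 knockdown libraries and no gCtl library, and its values rest on 4 to 28 estimated counts per library.

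Inositol is carried by 2 members. SLC2A13, the proton-coupled inositol carrier HMIT (chromosome 12, 39755021 to 40106089, minus strand), was at 0.734 to 3.13 CPM in gCtl and 0.834 to 3.41 CPM in the knockdown libraries, with 4 to 19 estimated counts per library. It was not called (log2 fold change 0.27, 95% interval -0.73 to 1.27). SLC5A3, the sodium-coupled inositol carrier SMIT, by which cells gather inositol under osmotic stress, was at 123, 114, 140.2, 117 and 164 CPM in gCtl, 137, 109.5 and 123 CPM in g1 and 105 and 67.5 CPM in g2. The g1 libraries lay within or next to the gCtl range and the g2 libraries below it. In the comparison of all knockdown libraries the log2 fold change was -0.28 (SE 0.17, edgeR adjusted p = 0.252), which was not called. SLC5A3 (chromosome 21, 34073570 to 34106262, plus strand) lies inside MRPS6 (34073224 to 34143034), a mitochondrial ribosomal protein gene on the same strand with another 3′ end. MRPS6 was called lower in that comparison (-0.93, SE 0.20, edgeR adjusted p = 0.00475), so that reads of MRPS6 counted as SLC5A3, or the reverse, would mix both.

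Each guide was also compared with gCtl, in a fit with 3 groups that share 1 estimate of the spread. These comparisons use the same 5 gCtl libraries and are not independent of each other. For g1, 2 of the 8 genes were called lower and none higher, with 9.94% of all genes tested called lower and 6.81% higher. SLC2A3 fell by 1.04 on the log2 scale (SE 0.16, edgeR adjusted p = 0.000567) and SLC5A6 by 0.70 (SE 0.19, edgeR adjusted p = 0.0159). The SLC5A6 call was lost without g1 replicate 3 (edgeR adjusted p = 0.0807), on the log2(TPM + 1) scale (limma adjusted p = 0.0520) and when more than a 1.5-fold change was asked for (adjusted p = 0.623). SLC2A5 was at -1.03 (SE 0.45, edgeR adjusted p = 0.121), and the median of the 8 genes was -0.06, against 0.01 for all genes tested. SLC2A1 had a log2 fold change of 0.04, which turned to -0.03 with library totals.

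For g2, 3 of the 8 genes were called lower and none higher, with 13.0% of all genes tested called lower and 10.7% higher. SLC2A3 fell by 2.34 on the log2 scale (SE 0.21, edgeR adjusted p = 4.49e-06), to 19.7% of its gCtl level. SLC5A6 fell by 1.13 (SE 0.23, edgeR adjusted p = 0.00238), to 45.8%, and SLC5A3 by 0.61 (SE 0.20, edgeR adjusted p = 0.0331), to 65.4%. The SLC5A3 call was lost without gCtl replicate 3 (edgeR adjusted p = 0.0605), gCtl replicate 5 (0.0514) or g2 replicate 2 (0.346), and under glmTreat (0.636). Leaving out g2 replicate 2 brought the log2 fold change to -0.32. SLC2A5 was at -1.44 (SE 0.54, edgeR adjusted p = 0.0618), just outside the threshold, and it was called under 4 of the 11 planned settings. Without g2 replicate 2 its log2 fold change was -3.12 and it was called (edgeR adjusted p = 0.0176). Likewise, SLC2A5 was called in g2 without g1 replicate 3 (edgeR adjusted p = 0.0487). The median of the 8 genes was -0.53, against 0.00 for all genes tested, and library totals moved the latter to -0.16 and the share of lower genes among those called from 54.9% to 73.3%. In the form used here, the exact permutation test of 2 against 5 libraries cannot give a p below 0.0952. SLC2A3, SLC2A5, SLC5A3 and SLC5A6 each reached that value, lower in 2 of 2 libraries. The share of all genes tested with this arrangement in g2 was not determined, so it is given as a description and not as a trait of the carriers.

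The guides were set against each other in the same fit. SLC2A3 was lower in g2 than in g1 by 1.30 on the log2 scale (SE 0.21, 95% interval -1.73 to -0.86, edgeR adjusted p = 0.00216), with 2 of 2 g2 libraries below all 3 g1 libraries. It was the only one of the 8 genes called in this comparison, in which 3.42% of all genes tested were called lower and 1.56% higher. For SLC5A6 the difference between the guides was -0.42 (95% interval -0.93 to 0.08, edgeR adjusted p = 0.334), and for SLC5A3 it was -0.52 (95% interval -0.97 to -0.06, edgeR adjusted p = 0.18). Without g2 replicate 1 the SLC5A3 difference was -0.86 and was called (edgeR adjusted p = 0.0373). The differences for the other 5 genes lay between -0.49 (SLC2A1) and 0.64 (SLC2A13), and none of these 5 was called. The median of the 8 was -0.42, against 0.01 for all genes tested, which library totals moved to -0.10, with 83.4% rather than 68.6% of the called genes lower.

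Within the set, SLC2A3 held a smaller share of the counts in the knockdown libraries. In gCtl, 39.7% to 46.7% of the estimated counts of the 8 genes belonged to SLC2A3, against 25.3% to 33.5% in g1 and 16.4% and 20.7% in g2. These shares did not overlap between gCtl and the knockdown libraries. SLC2A1 took 20.6% to 35.7% in gCtl and 29.3% to 49.6% in the knockdown libraries, and SLC5A3 took 16.0% to 28.2% and 20.8% to 30.0%. The number of SLC2A3 counts per SLC2A1 count was 1.11 to 2.16 in gCtl, 0.510 to 1.14 in g1 and 0.337 and 0.497 in g2. The ratio of g1 replicate 1 lay just inside the gCtl range, and those of the other 4 knockdown libraries lay below it. Summed over the 8 genes, the level was 582 to 732 CPM in gCtl and 235 to 593 CPM in the knockdown libraries. Shares of a fixed total move together, so these values restate the levels above and were not tested. From bulk RNA, fewer cells that express a gene and less of its RNA per cell cannot be told apart.

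For each member called in the knockdown libraries, the 3 genes with the most similar pattern were looked up by Pearson's r of log2(CPM + 1) over the 10 libraries, among 7577 tested genes with a mean of at least 10 CPM. For SLC2A3 these included FRMD8 (r = 0.982) and BYSL (0.980). For SLC5A6 they were TMEM212 (r = 0.977), DAG1, which encodes dystroglycan (0.976), and TCF4, a basic helix-loop-helix factor (0.976). For SLC2A5 they were POLQ (r = 0.943), KRTCAP2 (0.939) and PRKRIP1 (0.929). These r describe the same 10 libraries, whose points share group, depth and scaling, and being the highest of many they carry no p.

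Genes that work beside these carriers were taken from lists, and each list described is given by how many of its tested genes were called in the knockdown libraries. Of the other SLC2A genes, 5 of 9 were tested and none was called. SLC2A8, an intracellular glucose carrier, was at 168 ± 26.5 CPM in gCtl (SD, n = 5), was called higher in g1 (0.77, SE 0.20, edgeR adjusted p = 0.0136) and was lower in g2 than in g1 by 1.38 (SE 0.27, edgeR adjusted p = 0.00724). Of the other SLC5A genes, 3 of 9 were tested and 1 was called lower, SLC5A9, which encodes the mannose and glucose carrier SGLT4, by 1.52 on the log2 scale (SE 0.34, edgeR adjusted p = 0.00545). SLC5A9 was at 3.13 to 5.28 CPM in gCtl and 1.10 to 2.11 CPM in the knockdown libraries, which did not overlap, so that it passed the filter on low values through gCtl alone. Of the sodium pump genes, 5 of 7 were tested. ATP1B1, the pump's beta subunit, fell by 0.67 (SE 0.23, edgeR adjusted p = 0.0426), and FXYD3, a small regulator of the pump, rose by 1.20 (SE 0.37, edgeR adjusted p = 0.027). FXYD3 differed between the guides, at 0.47 in g1 (SE 0.29, edgeR adjusted p = 0.274), 1.88 in g2 (SE 0.30, edgeR adjusted p = 0.000496) and 1.42 higher in g2 than in g1 (SE 0.33, edgeR adjusted p = 0.0237). ATP1B1 was called in g2 (-1.15, edgeR adjusted p = 0.0048) and not in g1 (-0.42, edgeR adjusted p = 0.176). The ATP1B1 call was lost in 8 of the 10 fits of the knockdown comparison with a library left out (all but those without g1 replicate 1 or 2), and the FXYD3 call in 4 (gCtl replicates 2, 3 and 4 and g2 replicate 1).

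Of the genes of brush border sugar digestion, only TREH, trehalase, of 4 was tested and it was not called (log2 fold change -0.34; in g2 it was called lower, at -0.86, SE 0.20, edgeR adjusted p = 0.0065), while sucrase-isomaltase (SI) held 2 counts over all gCtl libraries and 56 over the knockdown libraries and was not tested.

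The lists around inositol and osmolytes are small, and their counts stand beside the 11.0% of all genes that were called lower. Of inositol synthesis and use, 4 of 5 genes were tested and 2 were lower, IMPA2, an inositol monophosphatase (-1.02, SE 0.27, edgeR adjusted p = 0.0137), and CDIPT, which joins inositol to lipid (-0.76, SE 0.21, edgeR adjusted p = 0.0161). IMPA2 was called in g1 (-1.24, edgeR adjusted p = 0.00979) and not in g2 (-0.73, edgeR adjusted p = 0.118). CDIPT was called in g2 (-1.04, edgeR adjusted p = 0.0105) and not in g1 (-0.60, edgeR adjusted p = 0.0678). The inositol synthase gene ISYNA1 was at 30.6 ± 3.85 CPM in gCtl and 29.6 ± 7.01 CPM in the knockdown libraries (SD, n = 5 each). Of the osmolyte response genes, 6 of 6 were tested and 2 were lower, SLC38A2, a sodium-coupled amino acid carrier (-0.84, SE 0.17, edgeR adjusted p = 0.00354), and AKR1B1, aldose reductase, which makes sorbitol (-1.20, SE 0.42, edgeR adjusted p = 0.0475). AKR1B1 differed between the guides, at -2.16 in g1 (SE 0.37, edgeR adjusted p = 0.0011), -0.42 in g2 (SE 0.37, edgeR adjusted p = 0.427) and 1.75 higher in g2 than in g1 (SE 0.43, edgeR adjusted p = 0.0282). In the knockdown comparison it lost its call in 7 of 10 fits with a library left out (gCtl replicates 1 to 4 and each g1 replicate), and SLC38A2 on the log2(TPM + 1) scale, at -0.47. The median log2 fold change was -0.41 over the inositol list and -0.62 over the osmolyte list.

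The vitamins that SLC5A6 carries feed the biotin carboxylases and the synthesis of coenzyme A. Of 12 genes of biotin and pantothenate use, 11 were tested. ACACA, the biotin enzyme acetyl-CoA carboxylase, fell by 0.62 (SE 0.15, edgeR adjusted p = 0.00733), and COASY, the last enzyme of coenzyme A synthesis, fell by 0.66 (SE 0.19, edgeR adjusted p = 0.0184). PPCS, an enzyme between pantothenate and coenzyme A, rose by 0.67 (SE 0.13, edgeR adjusted p = 0.00219), from 25.6 to 34.0 CPM in gCtl to 45.5 to 56.0 CPM in the knockdown libraries. The median of this list was -0.05. On the log2(RPM + 1) scale PPCS was at 0.57, under the 1.5-fold minimum, and was not called. With the length trend removed COASY was at -0.35 and was not called. ACACA lost its call in 3 of 10 fits with a library left out, those without gCtl replicate 5, g1 replicate 3 or g2 replicate 2. By guide, COASY was called in g2 (-0.96, edgeR adjusted p = 0.00747) and not in g1 (-0.49, edgeR adjusted p = 0.0831). ACACA was called in g2 (-0.70, edgeR adjusted p = 0.0149), while in g1 it was at -0.57, under the 1.5-fold minimum. PPCS was called higher with both guides.

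Of the regulators and scaffolds of transporters, 7 of 9 were tested. TXNIP, an arrestin relative known to bring glucose carriers in from the membrane, rose by 1.27 (SE 0.19, edgeR adjusted p = 0.000387), with 20.9 to 39.6 CPM in gCtl and 51.2 to 81.3 CPM in the knockdown libraries. PDZK1, a PDZ scaffold of the brush border, fell by 1.02 (SE 0.20, edgeR adjusted p = 0.00278), from 38.1 to 53.0 CPM in gCtl to 11.1 to 26.9 CPM in the knockdown libraries. Neither gene's libraries overlapped between the groups, and neither lost its call when a library was left out. Of all genes tested, 8.35% had all knockdown libraries below all gCtl libraries, as PDZK1 did. The share with the reverse arrangement, that of TXNIP, was not determined. The median of this list was -0.14. Of the 12 genes called in the lists described here, TXNIP was still called when the test asked for more than a 1.5-fold change, as was SLC5A9, which entered the test through gCtl alone, and the others were not.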

How the data were processed

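Lexogen QuantSeq 3′ mRNA libraries of Caco-2 cells (10 libraries, 5 gCtl, 3 g1, 2 g2) were analysed. The authors quantified reads with Kallisto (version 42.5) on GENCODE 24 and deposited estimated counts per transcript, not normalized, for each library. The strand setting is not given in the sources used here.

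From these, estimated counts were summed per gene and rounded, and RPM and TPM were computed. The 11640 genes tested have a coding transcript and exceed 3 RPM in 20% of libraries or more. They were tested with edgeR 4.0.16 in R 4.3.3 (glmQLFTest, TMM). A call needed a 1.5-fold change or more and an adjusted p (Benjamini-Hochberg) not above 0.05. CPM are TMM-normalized. The common biological coefficient of variation was 0.205. Groups came from the labels, which give no replicate numbers, so replicate numbers are only names. In the 14 pairs of libraries of a group, counts differed by more than sampling noise (chi-square per degree of freedom 4.78 to 29.9). Exact permutation tests used scipy 1.17.1 and log2(RPM + 1). The other settings were DESeq2 1.42.0, limma 3.58.1 on log2(RPM + 1) and log2(TPM + 1), other scalings and filters, glmTreat, a removed length trend, summed copies, a pseudocount of 0.1 and each library left out, and, added after the data were seen, SLC2A3 without its short transcript. The members and lists were chosen with earlier results of these data known. Genes named are the 8 members, up to 4 called genes per list by adjusted p, 4 genes that could share reads, and the 3 genes most alike each called member. Some results are not reported here. Further genes (ISYNA1, SLC2A8, TREH, SI and markers) were named after their values were seen. On simulated counts for 11640 genes with 200 changed 3-fold, edgeR recovered 93% for the knockdown comparison (4 false calls), 88% for g1 (10) and 81% for g2 (13). The simulation gave both guides the same change and no other gene a change. Its shares therefore do not describe smaller changes or changes that differ between the guides, as in these data. With all 10 libraries, no member fell under the filter. Positions are from GENCODE 29 (GRCh38), and promoters from RefSeq. Depth was 3838803 to 8730468 estimated counts. One estimated count was worth 0.115 to 0.260 RPM.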

Additional observations from a re-analysis of the deposited data

Results flagged for a closer look

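SLC2A3 in gCtl replicate 4 was at 332 CPM, apart from the other 4 gCtl libraries (259 to 279.5 CPM) by more than Dixon's test at 95% allows. Such a gap was looked for in the gCtl libraries of the 8 genes and found in 1, and chance gives about 1 in 20 groups. Without this library the log2 fold change of SLC2A3 in the knockdown libraries was -1.37 (edgeR adjusted p = 0.00607).

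The change of SLC2A3 differed between the guides, with a log2 fold change of g2 against g1 of -1.30 (SE 0.21, edgeR adjusted p = 0.00216) in the fit with 3 groups, and both g2 libraries below all 3 g1 libraries.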

How the results depend on the processing

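SLC2A3 was called lower in all 4 comparisons under every setting run, with log2 fold changes of -2.43 to -1.26 in the knockdown comparison. When more than a 1.5-fold change was asked for (glmTreat), 1 of the 8 genes was called in the knockdown comparison and 1 in g1, and limma on log2(TPM + 1) also called 1 in g1, while g2 called 2 with glmTreat. With a library left out, the knockdown comparison and g2 each called 2 to 4 genes, g1 called 1 to 2 genes (1 without g1 replicate 3) and g2 against g1 called 1 to 2 (2 without g2 replicate 1). Over all genes, calls went from 2232 to 488 with glmTreat in the knockdown comparison, from 1950 to 506 in g1 (1256 without g1 replicate 3), from 2757 to 802 in g2 (1498 without g2 replicate 2) and from 580 to 92 in g2 against g1 (267 without g1 replicate 1, 314 without g1 replicate 2). The cause was not tested, other than that glmTreat asks for a larger change.

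Signs turned only in log2 fold changes that were not called. For SLC2A2 in the knockdown comparison, library totals gave -0.076, no filter -0.031, limma on log2(RPM + 1) -0.062 and limma on log2(TPM + 1) -0.23, and leaving out a library gave -0.086 to 0.12. For SLC2A1 in g1, library totals gave -0.028, limma on log2(RPM + 1) -0.046 and a removed length trend -0.011, and leaving out a library gave -0.38 to 0.26, against -0.41 to 0.010 in the knockdown comparison. SLC2A13 in g1 was 0.14 with limma on log2(TPM + 1) and -0.22 to 0.29 with a library left out. Leaving out a library gave -0.56 to 0.11 for SLC2A2 in g2, -2.07 to 0.31 for SLC2A5 and -0.45 to 0.52 for SLC5A1 in g2 against g1. The mean differences of log2(RPM + 1) in the permutation tests ranged from -0.14 to 0.054 for SLC2A2 and from -0.028 to 0.29 for SLC2A13. No paired analysis was possible because the labels give no replicate numbers. SLC2A13 and SLC5A1 had 4 to 28 estimated counts per library. They fell under the filter and gave no value without g2 replicate 1, nor SLC2A13 without gCtl replicate 4 or SLC5A1 without g1 replicate 3.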
